A study of Homo sapiens with 15 samples.

Results

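The genes described here encode 45 core proteins of the major spliceosome, the machine that removes most introns from messenger RNA. They were taken by gene symbol, and all 45 were found among the 21519 genes of the count table. The members were chosen with earlier results of these data known. Splicing events of these genes numbered 2446 of 721551, in 43 genes. No event was listed for U2AF1 or for SF3B5, whose principal transcript has 1 exon.

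All libraries were made from HEK-293, a cell line derived from human embryonic kidney. Control cells were untreated and not transfected, and GEMIN5 cells were harvested 24 h after lipid transfection with a plasmid that expresses GEMIN5, so that overexpression and transfection cannot be told apart. Poly(A) RNA was sequenced from the cytoplasmic lysate (Input control, n = 4, and Input GEMIN5, n = 3) and from the polysomal part of a sucrose gradient (fractions 8 to 12 among 12 collected), where RNAs carry several ribosomes (Polysome control, n = 4, and Polysome GEMIN5, n = 4). Whether libraries of 1 group came from separate cultures is not stated, and p-values therefore reflect the spread between libraries, which may be technical.

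The spliceosome is built on each intron from small nuclear ribonucleoproteins (snRNPs), each a small nuclear RNA with its own proteins. U1 pairs with the 5′ splice site, U2AF marks the 3′ splice site, U2 binds the branch point, and the tri-snRNP of U4, U6 and U5 then joins, after which the complex around PRPF19 (NTC) helps to form the catalytic centre. GEMIN5 recognises small nuclear RNAs for the SMN complex, which loads the ring of Sm proteins on them.

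GEMIN5 reads numbered 161 to 258 in Input control and 9417 to 11848 in Input GEMIN5, and 66 to 139 and 11938 to 22005 in the polysome groups. Library totals ran from 11191417 to 18407933 counts. The Input GEMIN5 libraries stood apart: ribosomal protein genes took 55.4 to 60.2% of their counts, against 34.2 to 35.4% in Input control. All 8 HEK-293 markers were detected in each library of the other groups and 7 of 8 in each Input GEMIN5 library. Levels are given as CPM, counts scaled to a common library total that was first adjusted by TMM (trimmed mean of M-values). On this scale the markers summed to 941 to 1153 CPM in Input control, 694 to 811 in Input GEMIN5, 424 to 665 in Polysome control and 403 to 525 in Polysome GEMIN5. PAX2 was at 0 in Input GEMIN5 replicate 1, and LHX1 was at 0 in replicates 2 and 3. All 21 liver markers were detected in Input control replicates 3 and 4 (1807 and 1491 summed reads) and in every Polysome control library (1568 to 2132 reads). The other libraries held 18 to 63 such reads, with 5 to 9 of the 21 detected. All 9 blood markers were detected in every Polysome control library (180 to 265 summed reads), against 2 to 3 in each GEMIN5 library (83 to 116 reads) and 4 to 8 in Input control (70 to 111 reads). Polysome control replicate 1 and Polysome GEMIN5 replicate 4 deviated from their groups together across genes (r = 0.588).

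Levels of the 45 mRNAs spanned a wide range. Per kilobase of the principal transcript, mean levels in Input control ran from 0.859 CPM for AQR, an intron-binding helicase, to 785 for SF3B6, the U2 protein that lies at the branch point, with a median of 19.8. After SF3B6 came SF3B5 at 703 and SNRPC at 674, both small proteins of U2 and U1. PRPF39 (2.73) and PRPF4B (2.14), a U1-associated factor and a kinase, stood with AQR at the low end. In Polysome control the same measure ran from 0.441 for AQR to 781 for SF3B6. In Input control, spliced reads of some long members, among them AQR and PRPF8, lay mostly near the 3′ end. The levels are not corrected for this, and division by the full length can place such members low.

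In Input, 16 of the 45 mRNAs were lower and 8 higher in GEMIN5 cells than in control cells (edgeR's quasi-likelihood test, adjusted p under 0.05), and 21 did not pass. Over all 12197 genes tested, 24.3% were called lower and 27.1% higher, against 35.6% and 17.8% of the members. The median log2 change of the members was −0.22, and that of all genes was −0.01. Members' CPM values did not overlap between the groups for 33 of 45 genes, 24 of them lower and 9 higher. Of all genes tested, 29.1% were lower and 29.8% higher without overlap. Changes are relative to the TMM scaling. Under scaling to library size alone, all genes shifted to a median of −1.29, and 41 members were called lower and 2, TXNL4A and SF3B5, higher. Of all 12197 genes, 9270 were then called lower and 605 higher. Of the 8 risers, PRPF8, PHF5A, PPIH and SNRNP27 were called lower under this scaling, and SNRPC and SF3B6 were fitted below 0. Without Input control replicates 3 and 4, which carried the liver reads, 14 members were lower and 7 higher. Fewer cells and less RNA per cell cannot be told apart in such bulk samples.

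**Figure D1:**
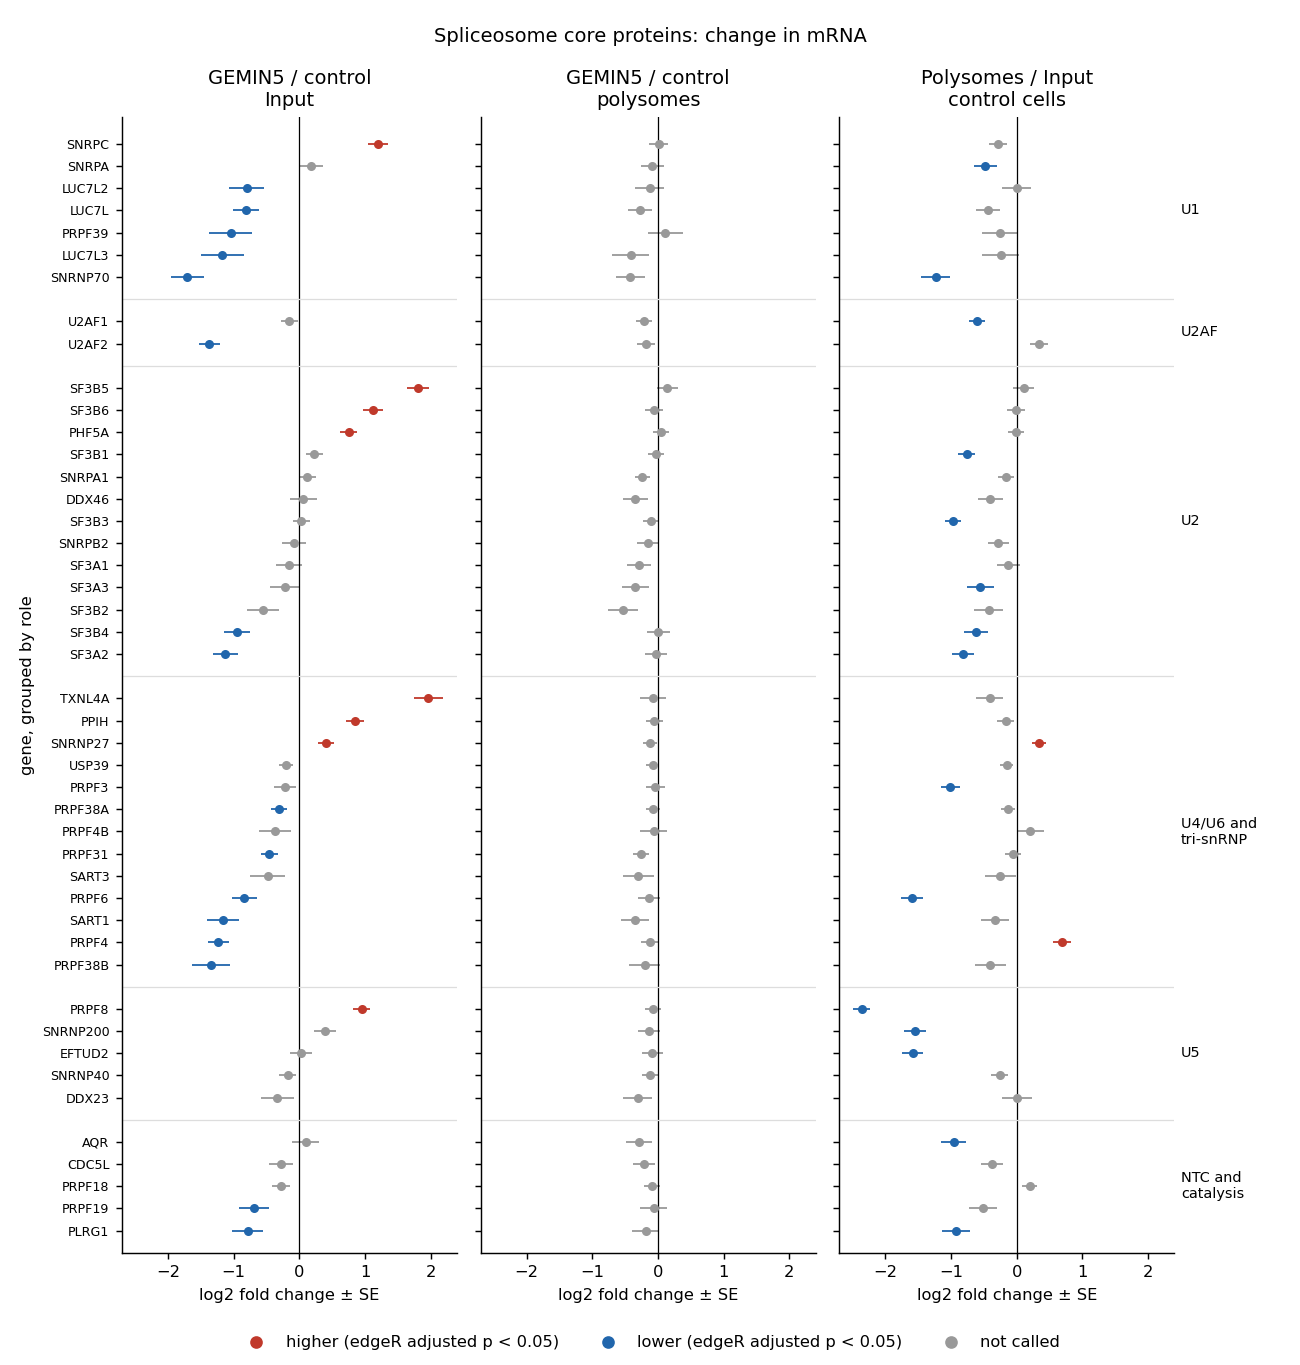
Log2 fold change of each of the 45 mRNAs (points, bars are standard errors of the edgeR fit) for GEMIN5 against control in Input, GEMIN5 against control in polysomes, and polysomes against Input in control cells, by role in the spliceosome. In Input 8 are higher and 16 lower, in polysomes none passed the test, and PRPF8 is the farthest to the left in control polysomes against Input.

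Among the 7 U1 genes, 5 fell, 1 rose and SNRPA did not pass. SNRNP70, the U1-70K protein that helps U1 hold the 5′ splice site, stood at 305, 334, 325 and 329 CPM in Input control and at 106, 104 and 87.1 in Input GEMIN5. All 3 GEMIN5 values were below all 4 control values, and SNRNP70 fell by 1.71 on the log2 scale (SE 0.25, edgeR adjusted p = 1.4e-05). SNRPC, the zinc-finger U1-C protein, moved the other way, from 546, 611, 579 and 534 CPM to 1156, 1524 and 1236. Its values did not overlap either (log2 change 1.20, SE 0.15, edgeR adjusted p = 2.1e-06), but under scaling to library size alone its change was −0.10. The LUC7-like proteins, which bias the choice of 5′ splice sites, fell together: LUC7L3 by 1.17, LUC7L by 0.81 and LUC7L2 by 0.80. PRPF39, another U1-associated factor, fell by 1.05, from 7.71, 8.03, 7.73 and 7.83 CPM to 4.67, 1.80 and 4.64. LUC7L2 missed the threshold when Input GEMIN5 replicate 3 was left out, at −0.58 with an edgeR adjusted p of 0.11.

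Of the U2AF pair, U2AF2 fell and U2AF1 did not pass. U2AF2, the large subunit that binds the polypyrimidine tract, stood at 246, 285, 258 and 261 CPM in Input control and at 105, 99.8 and 98.8 in Input GEMIN5, and fell by 1.37 (SE 0.16, edgeR adjusted p = 7.8e-07). U2AF1, the small subunit that reads the AG at the intron end, stood at 327, 373, 322 and 312 CPM and at 281, 329 and 292. These groups overlapped, and U2AF1 did not pass (−0.15, SE 0.13, edgeR adjusted p = 0.35). The difference between the changes of U2AF1 and U2AF2 was not tested. U2AF1 has a near-identical copy in this genome build, so its counts are uncertain.

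Of the 13 U2 genes, 3 rose, 2 fell and 8 did not pass. The risers were the 3 small subunits of the SF3b complex. SF3B5 stood at 460 to 524 CPM in the 4 Input control libraries and at 1427, 1857 and 1825 in Input GEMIN5, a rise of 1.81 (SE 0.17, edgeR adjusted p = 1.1e-07). SF3B6 rose by 1.12 and PHF5A, which with SF3B1 forms the pocket for the branch-point adenosine, by 0.75, but under scaling to library size alone these changes were −0.18 and −0.53. SF3A2, a subunit of the SF3a complex of U2, fell by 1.13 (SE 0.19, edgeR adjusted p = 5.7e-05). Its values were 115, 123, 121 and 131 CPM in control and 52.0, 54.5 and 61.8 in GEMIN5 libraries. SF3B4 fell by 0.95. The large scaffold subunits did not pass: SF3B1, which is mutated in several blood cancers, stood at 0.23 (SE 0.14), SF3B3 at 0.03, SF3A1 at −0.16 and SF3B2 at −0.55 (edgeR adjusted p = 0.071). The U2-specific proteins SNRPA1 and SNRPB2 stood at 0.12 and −0.08 and did not pass.

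The 13 genes of U4/U6 and the tri-snRNP divided into 3 that rose, 6 that fell and 4 that did not pass. TXNL4A, the small Dim1 protein carried by U5, showed the largest rise of the 45: 264, 286, 272 and 251 CPM in Input control and 811, 1206 and 1132 in Input GEMIN5 (log2 change 1.97, SE 0.22, edgeR adjusted p = 5.4e-07). PPIH, a cyclophilin bound to U4/U6, rose by 0.85, a change of −0.45 under scaling to library size alone. SNRNP27 rose by 0.41, from 24.5 to 27.8 CPM in control libraries to 30.7, 37.5 and 39.1, a call that was lost without Input GEMIN5 replicate 2 (0.13, edgeR adjusted p = 0.50) or 3 (0.34, 0.0503) and that turned to −0.89 under scaling to library size alone. PRPF38B fell by 1.34 (SE 0.29, edgeR adjusted p = 0.00069) from 22.8 to 27.6 CPM in control libraries to 12.5, 6.88 and 9.13. PRPF4, which binds U4/U6 together with PRPF3 and PPIH, fell by 1.23, from 38.3 to 45.3 CPM to 18.4, 13.4 and 21.4, while PRPF3 stood at −0.22 and did not pass. SART1, a protein of the tri-snRNP, fell by 1.16, PRPF6, the bridge between U5 and U4/U6, by 0.84 (41.6 to 53.3 CPM in control, 31.4, 27.7 and 22.5 in GEMIN5 libraries), and PRPF31, which clamps the U4 RNA and is mutated in inherited retinal degeneration, by 0.46. PRPF38A fell by 0.31, a call lost without Input control replicate 1 (edgeR adjusted p = 0.0597), Input control replicate 2 (0.108) or Input GEMIN5 replicate 1 (0.11). USP39, PRPF4B and SART3 did not pass.

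The 5 genes grouped as U5 leave out TXNL4A and PRPF6, which were counted with the tri-snRNP. Of the 5 only PRPF8, the scaffold at the heart of the catalytic centre, passed in Input. It stood at 119, 143, 136 and 143 CPM in control and at 250, 295 and 238 in GEMIN5 libraries, a rise of 0.95 (SE 0.13, edgeR adjusted p = 8.9e-06) that turned to −0.35 under scaling to library size alone. SNRNP200, the helicase that unwinds U4 from U6, stood at 0.39 (edgeR adjusted p = 0.067), the GTPase EFTUD2 at 0.03, SNRNP40 at −0.18 and the helicase DDX23 at −0.33. Of the 5 NTC and catalytic genes, PLRG1 fell by 0.79, from 53.0 to 61.0 CPM in the 4 control libraries to 32.6, 30.1 and 34.3 in GEMIN5 libraries. PRPF19, the ubiquitin ligase that names the NTC, fell by 0.69, from 223 to 270 CPM to 152, 166 and 150. PRPF19 missed the threshold when Input GEMIN5 replicate 3 was left out (edgeR adjusted p of 0.0571). CDC5L, PRPF18 and AQR did not pass.

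**Figure D2:**
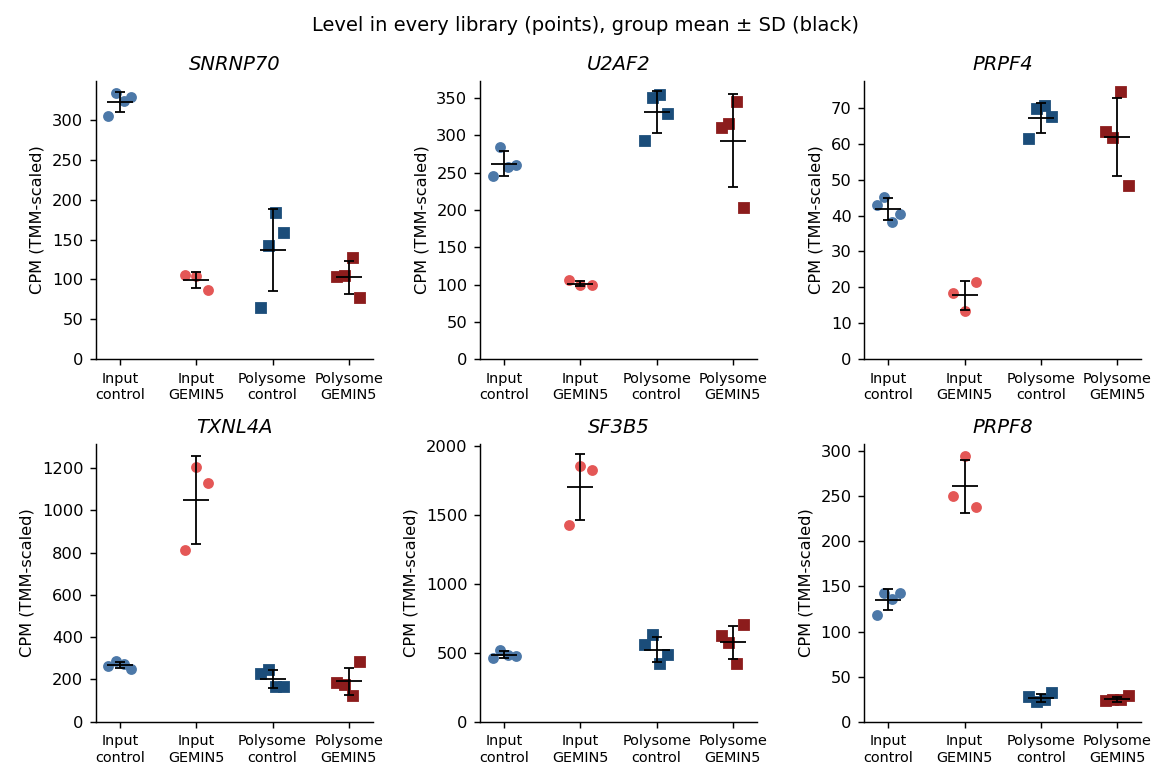
CPM of 6 mRNAs in each library (points), scaled by TMM, with the mean and SD of each group in black. Input GEMIN5 values lie apart from Input control for all 6, below it for SNRNP70, U2AF2 and PRPF4 and above it for TXNL4A, SF3B5 and PRPF8, while the polysome groups overlap.

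The members were also split by the length of their coding sequence, with limits chosen after the values were seen, so that the counts per class are a description set by those limits. The 7 members with under 600 coding bases are the Input risers other than PRPF8 (median 1.12). Of 28 members with 600 to under 2800 coding bases none rose and 15 fell (median −0.50). Of 10 longer members, PRPF8 rose and PRPF6 fell (median 0.05). Among all genes, 994 of 1506 genes with under 600 coding bases were called higher and 186 lower (median 0.98), and of 8616 in the middle class 1868 were higher and 2521 lower (median −0.14). Of 1970 longer genes 403 were higher and 254 lower (median 0.08). Over the 45 members, Spearman's rho between change and coding length was −0.22, and over 12092 genes −0.20, with all values sharing the same 7 libraries. With the length of the whole transcript it was −0.09 over the members.

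**Figure D3:**
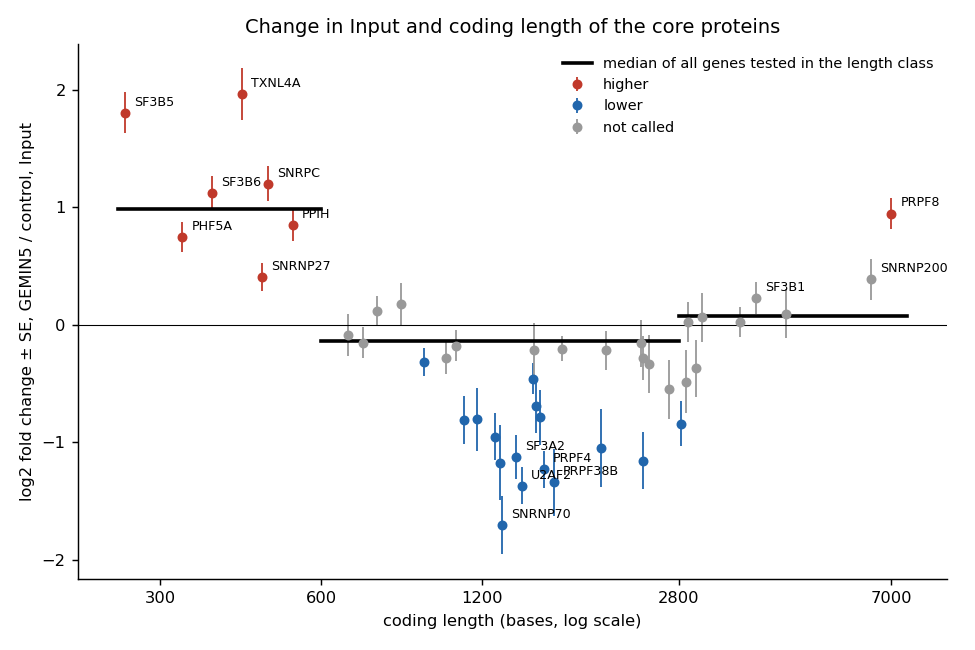
Log2 change in Input (GEMIN5 against control, bars are standard errors) against coding length on a log scale for the 45 genes, with the median of all genes tested in each of 3 length classes as black lines. The 7 genes under 600 bases are all above 0 and none of the 28 from 600 to under 2800 bases was called higher.

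Spliced reads showed where along each mRNA the counts lay. For 34 members with at least 6 matched introns, reads across the 3 junctions nearest the 3′ end and the 3 nearest the 5′ end were summed and scaled to the total counts of the library (junction CPM, with no TMM scaling). The median log2 ratio of 3′ to 5′ reads was 0.87 to 1.15 in Input control, 2.61 to 2.69 in Input GEMIN5, 1.04 to 2.03 in Polysome control and 0.94 to 1.72 in Polysome GEMIN5. Over 2826 genes the same ratio was 0.52 to 0.58, 1.18 to 1.24, 0.55 to 0.94 and 0.54 to 0.77. These genes had at least 20 such reads in every library, a limit not set for the members. The members' median was 1.63 higher in Input GEMIN5 than in Input control, with no overlap (two-sided exact permutation p = 0.0571, the smallest this design can give, 0.129 adjusted over 9 comparisons). The ratio was higher in mean in Input GEMIN5 for 30 of 34 members, the exceptions being AQR, PRPF39, SF3A2 and SF3B1, and for 86.1% of the 2826 genes. In 26 of 34 members, every Input GEMIN5 library lay above every Input control library, as in 59.0% of the 2826 genes.

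Spliced reads at the 3′ end stood at a median of 42.7% of the Input control level in Input GEMIN5, and those at the 5′ end at 9.21%. These percents hold no TMM scaling and were not taken over all genes. Gene counts scaled to library size alone had a median log2 change of −1.29 over all genes in the same comparison. PRPF8 was the 1 member above 100% at the 3′ end, with 40.7 ± 4.31 junction CPM in Input GEMIN5 (SD, n = 3) against 36.8 ± 3.88 in the control libraries (SD, n = 4). At its 5′-most junctions Input GEMIN5 held 0 reads in all 3 libraries, which allows up to 0.0561 junction CPM, against 0.353 ± 0.138 in Input control. At the last PRPF8 junction, 326 bases from the 3′ end, the means were 15.8 and 21.0 junction CPM. At the junction 1386 bases from the end they were 5.82 and 1.27. SNRNP70 was low at both ends: 87.7 ± 2.95 and 6.56 ± 1.41 junction CPM at the 3′ junctions, and 65.1 ± 5.49 and 4.23 ± 0.528 at the 5′ junctions. SF3A2 was alike, with 30.1 and 2.46 at the 3′ end and 25.7 and 2.25 at the 5′ end. The part of this 3′ concentration in the gene calls was not tested.

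**Figure D4:**
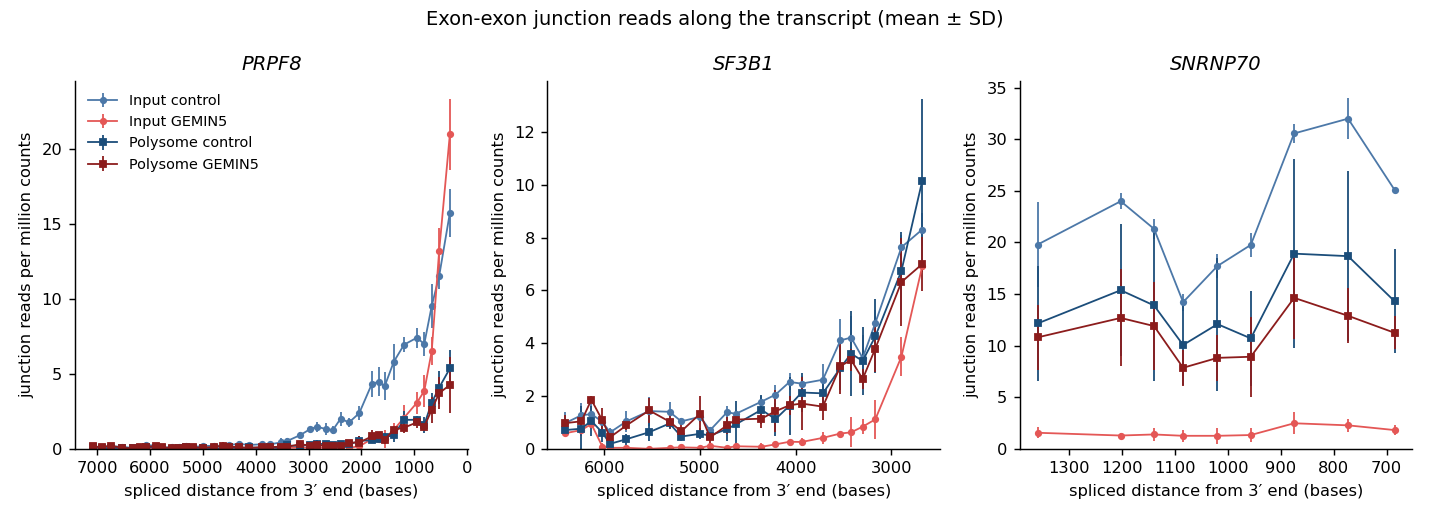
Junction CPM at each exon junction (mean, bars are SD) against the spliced distance of the junction from the 3′ end for PRPF8, SF3B1 and SNRNP70 in the 4 groups. For PRPF8 the Input GEMIN5 line crosses above Input control only near the 3′ end (21.0 against 15.8 at the last junction), while for SNRNP70 it lies below along the whole transcript.

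On polysomes no member passed in GEMIN5 against control cells. Over all genes, 0.082% were called higher and 0.32% lower. Of the 45 log2 changes 40 were below 0, with a median of −0.12 against 0.01 for all genes, and they ran from −0.53 (SF3B2) to 0.14 (SF3B5) with standard errors of 0.10 to 0.28. The CPM values of the groups overlapped for all 45 genes, and of all genes 1.64% were higher and 1.71% lower without overlap. Of all 12197 genes, 5973 were below 0. At an unadjusted p under 0.05 there were 2 of 45 members in edgeR, against 706 of all 12197 genes, and DESeq2 also called no member. SNRNP70, for example, stood at 64.6, 143, 184 and 158 CPM in Polysome control and at 103, 104, 127 and 76.5 in Polysome GEMIN5 (−0.42, SE 0.22, edgeR adjusted p = 0.92). Without Polysome control replicate 1, its lowest control library, SNRNP70 was called lower (−0.65, edgeR adjusted p = 0.0417), as was SF3B2 (−0.76, 0.0402). TXNL4A stood at 227, 247, 165 and 167 CPM in control and at 186, 175, 123 and 280 in GEMIN5 libraries. For U2AF2 the values were 293, 351, 354 and 329 CPM and 310, 315, 345 and 203. Polysome GEMIN5 replicate 4 was the highest of its group for TXNL4A and the lowest for U2AF2. SF3B5 stood at 559, 632, 419 and 486 CPM and at 619, 572, 417 and 701, and SNRPC at 505, 545, 387 and 433 and at 491, 456, 394 and 540. In these comparisons the liver and blood marker reads given above separated the groups, and their part in the members' values was not tested.

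The test of the difference between the GEMIN5 effects on polysomes and in Input was passed by 16 members, 8 in each direction, against 16.9% of all genes with a positive and 20.5% with a negative difference. The difference holds the Input change with its sign turned, from the same libraries, so where the change on polysomes is small its sign is set by the Input change, and these values are no separate support for it. The 8 members that rose in Input had a negative difference, led by TXNL4A (−2.04, SE 0.30, edgeR adjusted p = 3.4e-05), SF3B5 (−1.67) and SNRPC (−1.19). The 8 with a positive difference had all fallen in Input and were led by SNRNP70 (1.28, SE 0.33, edgeR adjusted p = 0.0044), U2AF2 (1.19) and PRPF39 (1.16). PRPF39 lost its call in 7 of the fits that left out 1 library, with edgeR adjusted p up to 0.0792 (without Polysome GEMIN5 replicate 3). Those fits were without Input control replicate 1, 2 or 3, Polysome control replicate 1 or 2, and Polysome GEMIN5 replicate 1 or 3. PRPF6 (0.70) lost its call without Input control replicate 2, 3 or 4, Input GEMIN5 replicate 3, Polysome control replicate 2 or Polysome GEMIN5 replicate 2 (edgeR adjusted p = 0.0518 to 0.112). Without Input GEMIN5 replicate 2 there were 12 positive and 5 negative differences, with all genes at a median of 0.21, and PHF5A (edgeR adjusted p = 0.124), PPIH (0.0752) and SNRNP27 (0.327) lost theirs. Without Polysome GEMIN5 replicate 4 there were 12 positive. Scaling to library size alone gave 40 positive and 1 negative difference, with all genes at a median of 1.27. Of all 12197 genes, 8412 then had a positive and 387 a negative difference.

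In control cells, 15 members were lower on polysomes than in Input, 2 were higher and 28 did not pass. Over all genes 19.1% were lower and 24.1% higher, and the medians were −0.33 for the members and 0.02 for all genes. In the same comparison 4 of 7 blood markers tested were called higher on polysomes (median 1.94) and none of the 21 liver markers (median 0.71), whose reads lay in all Polysome control and in 2 of the 4 Input control libraries. Their part in the members' values was not tested. PRPF8, SNRNP200 and EFTUD2, the large proteins of U5, were among the 4 lowest. PRPF8 was at 119 to 143 CPM in Input control and at 27.9, 22.3, 23.6 and 31.5 in Polysome control, lower by a log2 change of −2.36 (SE 0.13, edgeR adjusted p = 7.4e-10). PRPF6 was lower by −1.60 (9.71, 15.8, 18.5 and 20.4 CPM on polysomes), EFTUD2 by −1.59 (82.3 to 112 CPM and 21.5 to 40.4) and SNRNP200 by −1.55. SNRNP40 and DDX23, the other genes of the U5 group, stood at −0.26 and 0.01 and did not pass. SNRNP70 (−1.23), PRPF3 (−1.01), SF3B3 (−0.97), AQR (−0.96), PLRG1 (−0.92), SF3A2 (−0.81), SF3B1 (−0.76), SF3B4 (−0.62), U2AF1 (−0.60), SF3A3 (−0.56) and SNRPA (−0.48) were also lower.

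PRPF4 was higher on polysomes, at 61.2, 69.8, 70.4 and 67.4 CPM against 43.0, 45.3, 38.3 and 40.5 in Input control (log2 change 0.69, SE 0.14, edgeR adjusted p = 0.000498). SNRNP27 was the other (0.34), a call lost without Input control replicate 4 (0.30, edgeR adjusted p = 0.0567), and 3 members were higher without Polysome control replicate 1. The SF3A3 call was lost without any 1 of the 4 Input control libraries or of Polysome control replicates 1 and 2 (edgeR adjusted p = 0.0571 to 0.0751), and the SNRPA call without Input control replicate 3 (0.0697), Input control replicate 4 (0.0633) or Polysome control replicate 1 (0.0772). Under scaling to library size alone 7 members were lower and 14 higher, with all genes at a median of 0.54, and PRPF8 stood at −1.84, EFTUD2 at −1.06 and SNRNP200 at −1.02. Of all 12197 genes, 560 were then lower and 6492 higher. Coding length went with the values here too. Of the 10 members with at least 2800 coding bases 7 were lower (median −0.97), while of 1970 genes of that length 386 were lower and 512 higher (median 0.12). Over the members Spearman's rho with coding length was −0.43, and over 12092 genes it was 0.06. Junction reads of PRPF8 at the 3′ end stood in Polysome control at 34.0% of the Input control level, the lowest of 34 members. This value holds for the 3′ end only. The mean log2 ratio of 3′ to 5′ reads of PRPF8 was 6.52 in Input control (SD 0.69) and 5.41 in Polysome control (SD 0.59), with few reads at the 5′ end. The median of the 34 members at the 3′ end was 123%, and 10 of them lay below the Input control level, on the scale without TMM.

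In GEMIN5 cells, 19 members were lower on polysomes than in Input and 6 higher, against 35.0% and 32.6% of all genes. PRPF8 again had the lowest value (−3.39, SE 0.14, edgeR adjusted p = 4.0e-12), followed by TXNL4A (−2.46) and SNRNP200 (−2.07). PRPF4 (1.80) and U2AF2 (1.53) were the highest. This comparison shares its Input GEMIN5 libraries with the Input comparison above. The 6 higher became 3 without Input GEMIN5 replicate 3 or Polysome GEMIN5 replicate 3, and 11 without Polysome GEMIN5 replicate 4. Scaling to library size alone gave 2 lower and 39 higher, with all genes at a median of 1.78. Of all 12197 genes, 465 were then lower and 10310 higher.

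Other spliceosome genes were read beside the core. Of 45 tested genes of a list of further splicing proteins, 19 fell in Input and 5 rose, with a median of −0.35, and none passed on polysomes in GEMIN5 against control cells. Of all genes, as above, 24.3% fell and 27.1% rose in Input. Among them the second-step factor SLU7 fell by 1.63 and WBP11 by 1.59, while BUD31, a small NTC-associated protein, rose by 1.57 (0.24 under scaling to library size alone, which gave 43 lower and 1 higher in this list). Of the 7 Sm proteins, 6 rose in Input with a median of 1.79, including SNRPG (2.51) and SNRPD2 (2.10), and SNRPD3 stood at −0.98 with an SE of 0.56 and did not pass. Scaling to library size alone gave 4 higher and 2 lower, with SNRPB called lower (−0.43). None of the 7 passed on polysomes, where their median was −0.04. Coding length was not set beside the values of the Sm genes. Among all genes with under 600 coding bases, 994 of 1506 were called higher in Input (median 0.98).

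Splicing of the members' own mRNAs was measured as percent spliced in (PSI), the share of the reads of an event that include its exon, intron or splice site. In Input, 6 of 53 member events that could be tested (19 genes) were called between GEMIN5 and control cells with limma at an adjusted p under 0.05, against 4.29% of all 11930 events. They were 5 distinct choices in 4 genes, since the USP39 pair mirrors itself. Events, of members and of all genes alike, were tested only where at least 1 library reached 5%. The called events of PRPF31, U2AF2 and SF3A2 met this limit only through Input GEMIN5 libraries, the group in which they were called higher. On polysomes 0 of 65 member events and 0.0% of 17485 events were called in GEMIN5 against control cells with limma, and at an unadjusted p under 0.05 there were 0 member events. Between polysomes and Input, 0 of 75 were called in control cells (0.0186% of 16106 events, 11 members at an unadjusted p under 0.05 in limma) and 5 of 56 in GEMIN5 cells (5.0% of 11943 events).

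The 3 exons below are those with the largest called PSI differences for which the annotation holds the sequence. They are shown 5′ to 3′ on the gene's strand from GENCODE v29 transcripts (GRCh38), and all bases shown are coding there. In the PRPF38A and USP39 exons, lower case marks the bases kept by both splice sites, or their last 23 in USP39, and capitals the bases added by the downstream 5′ splice site. Both added stretches begin with GT, the letters with which most introns begin. For LUC7L the whole alternative exon is in capitals.
USP39 (chr2:85616434-85616463, plus strand): aggactcggagcctgagcgggagGTGCGAG
PRPF38A (chr1:52405680-52405839, plus strand): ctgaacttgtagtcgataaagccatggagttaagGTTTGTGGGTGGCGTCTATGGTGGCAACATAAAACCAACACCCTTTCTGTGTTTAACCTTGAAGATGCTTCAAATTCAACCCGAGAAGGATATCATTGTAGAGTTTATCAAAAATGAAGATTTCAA
LUC7L (chr16:228333-228402, minus strand): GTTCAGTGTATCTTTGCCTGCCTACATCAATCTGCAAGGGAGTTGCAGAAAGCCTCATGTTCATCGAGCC

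An intron of PRPF31 (chr19:54118634-54121859 in GRCh38, 3226 bases) was retained more in Input GEMIN5. Its retention was 2.22, 1.70, 1.90 and 1.54% in Input control (132 to 209 corrected reads) and 14.29, 12.90 and 16.42% in Input GEMIN5 (35 to 39 reads). The groups did not overlap, and the difference of 12.7 points passed (limma adjusted p = 0.00374), also without any 1 library. On polysomes it was 0.00 to 1.97% in control and 1.27 to 3.32% in GEMIN5 cells, a difference of −12.5 points from Input in GEMIN5 cells (limma adjusted p = 0.0103). In both comparisons the event met the limit of 5% in at least 1 library only through Input GEMIN5, the group in which it was high.

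The upstream 5′ splice site of USP39, a protein needed for the tri-snRNP to join, leaves out the 7 capital bases shown above. It was used in 3.78, 3.09, 7.18 and 3.03% of reads in Input control and in 20.96, 16.17 and 9.59% in Input GEMIN5. These values did not overlap and differed by 11.3 points (limma adjusted p = 0.0323), but only 11 to 15 reads stood behind each Input GEMIN5 value, and the call was lost without any 1 library except Input control replicate 3 (limma adjusted p = 0.0566 to 0.0925).

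PRPF38A, a protein that joins with the tri-snRNP and is needed for activation, has an upstream 5′ splice site that leaves out the 126 capital bases. Its share was 17.93, 14.60, 16.88 and 13.34% in Input control, 30.94, 20.93 and 28.87% in Input GEMIN5, 1.73, 3.0, 4.56 and 7.87% in Polysome control and 2.30, 6.44, 3.20 and 9.96% in Polysome GEMIN5. Each polysome library lay below each Input library. The difference between polysomes and Input was −21.4 points in GEMIN5 cells (limma adjusted p = 0.0236) and −11.4 points in control cells, where it did not pass (limma adjusted p = 0.275). The call in GEMIN5 cells was lost without any 1 Input GEMIN5 library or Polysome GEMIN5 replicate 1 or 3 (limma adjusted p = 0.0501 to 0.0779).

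The LUC7L exon of 70 bases was included in 11.74, 35.05 and 10.34% of reads in Input GEMIN5 and in 1.96, 5.60, 1.64 and 2.32% in Polysome GEMIN5. The groups did not overlap and differed by −16.2 points (limma adjusted p = 0.0407), with 16 to 23 reads in the Input GEMIN5 libraries, and the call was lost without any 1 of the 7 libraries (limma adjusted p = 0.0611 to 0.114). In Input control the exon stood at 7.35, 2.24, 3.87 and 9.86%.

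The other called events had PSI values near 0. Each met the limit of 5% in at least 1 library only through Input GEMIN5 (highest values 5.13, 5.26 and 5.26%). That is the group in which they were called higher, so the calls depend on this limit. An exon of 60 bases in U2AF2 (chr19:55661771-55661830) stood at 0.36 to 0.89% in Input control and at 4.08, 5.13 and 1.54% in Input GEMIN5 (2.98 points, limma adjusted p = 0.0351). On polysomes of GEMIN5 cells it stood at 0.00 to 0.43%, a difference of −3.41 points from Input (limma adjusted p = 0.0165, lost without Input GEMIN5 replicate 1 or 3 or Polysome GEMIN5 replicate 3, up to 0.0681). A second U2AF2 exon, of 120 bases (chr19:55658862-55658981), stood at 0.00 to 0.30% and at 1.82, 0.00 and 5.26% in Input. The call on a longer SF3A2 exon form rested on Input GEMIN5 replicate 1, at 5.26% of 19 reads, with 0.00% in the other 2 GEMIN5 libraries. In Input both calls on the U2AF2 exons and that on SF3A2 were lost in every fit that left out 1 library and still held the event (limma adjusted p = 0.054 to 0.11), except for the 120-base exon without Input control replicate 3.

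**Figure D5:**
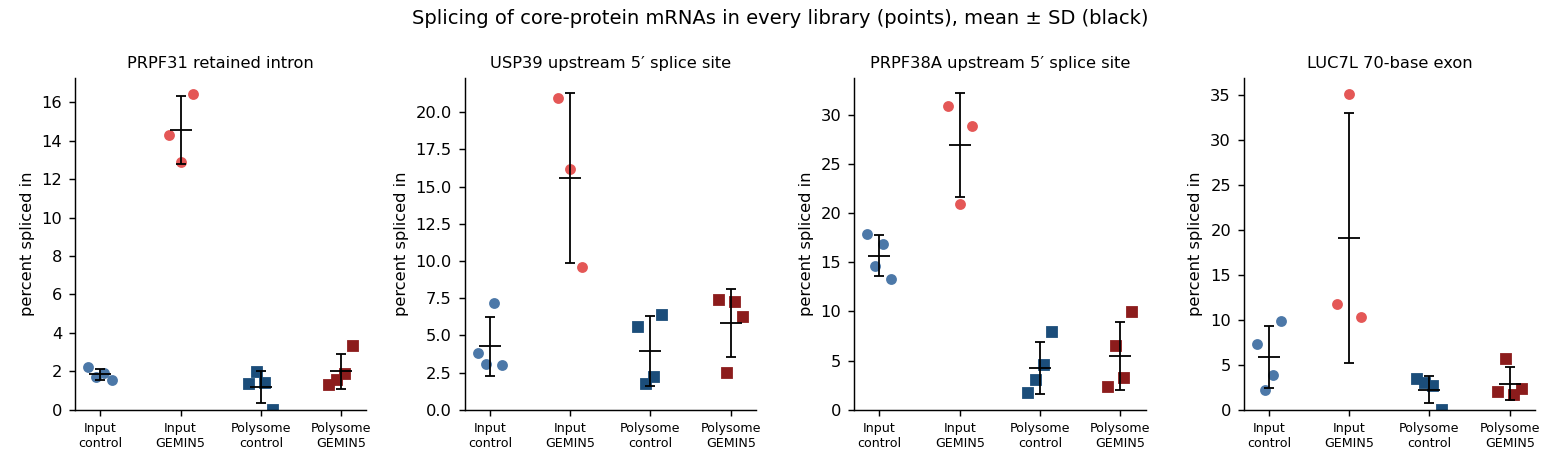
PSI of 4 events in each library (points), with the mean and SD of each group in black: a retained intron of PRPF31, the upstream 5′ splice sites of USP39 and PRPF38A, and an exon of LUC7L. Input GEMIN5 is the highest group for all 4, with means of 14.5, 15.6, 26.9 and 19.0%, and the polysome groups overlap.

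The best covered event of SNRNP70, an alternative 3′ splice site, was used in 21.21 to 27.03% of reads in Input control and in 34.21, 14.58 and 30.95% in Input GEMIN5, which overlapped and did not pass (limma adjusted p = 0.88). An exon of LUC7L3 of 121 bases stood at 0.33 to 2.55% and at 4.42, 0.00 and 5.26% and did not pass either (limma adjusted p = 0.53).

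TXNL4A showed a further shift that did not pass. Its exon of 104 bases (chr18:79977598-79977701), with 1194 to 3279 reads a library, stood at 81.68 to 83.91% in Input control, 74.07 to 75.84% in Input GEMIN5, 87.75 to 92.18% in Polysome control and 86.38 to 89.40% in Polysome GEMIN5. The Input and polysome values did not overlap in either kind of cell. In GEMIN5 cells the difference of 13.7 points had a limma adjusted p of 0.0516.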

How the data were processed

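Gene values were raw read counts of 21519 Ensembl genes, deposited by the authors. Alignment with STAR 2.7.10a and counting with featureCounts on GRCh38/hg38 are per the submitters' processing notes. Neither the counting options nor strand use is given in the sources used here, and the deposited gene length (unit other) equals the whole gene span, so intronic, overlapping and antisense reads are uncertain. Percent spliced in was deposited by the authors as a percent for 721551 events. The deposited quality column (unit other) holds corrected inclusion and exclusion reads. Symbols, transcripts and exon sequences came from GENCODE v29 and matched 21494 genes.

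Genes kept by filterByExpr (12197) were, after TMM scaling, fitted over all 15 libraries at once with edgeR 4.0.16 in R 4.3.3 (quasi-likelihood, Benjamini-Hochberg adjustment). DESeq2 1.42.0 was an alternative. Events with at least 10 reads in every compared library, not all below 5% and not all above 95%, were tested with limma 3.58.1 on the log2 odds of inclusion (pseudocount of 0.5 reads). Sample titles gave the groups. Junction reads were the exclusion reads of annotated introns, with 1 added for ratios and, for the all-gene ratio, at least 20 reads at both ends together in every library. Exact permutation tests used SciPy 1.17.1 with Python 3.11.15, numpy 2.4.6 and pandas 2.3.3, and figures matplotlib 3.10.9. The tests were tested on simulated data. There, every changed splicing event started above 5%, so the simulation does not bear on called events that started lower, such as that of PRPF31.

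Named genes were, by role, the called members with the highest and lowest change in Input, the 3 called members farthest each way in the difference of effects and in control polysomes against Input, all called on polysomes, and U2AF1. Others were named for their role after their values were seen. The members and lists were chosen with earlier results of these data known. Total counts were 11191417 to 18407933 a library. A floor of 3 reads for a count of 0 covers counting error only, since PCR copies are not independent molecules. Alternatives were other scalings, filters, tools, library sets, a replicate block and leaving out each library.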

Additional observations from a re-analysis of the deposited data

Results flagged for a closer look

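For 16 members the effect of GEMIN5 transfection differed between polysomes and Input, by the test of the difference itself in edgeR (adjusted p under 0.05). These were 17.8% of the members in each direction, near the share of all genes (16.9% positive, 20.5% negative). The log2 differences (polysomes minus Input) were positive for SNRNP70 (1.28), U2AF2 (1.19), PRPF39 (1.16), PRPF38B (1.14), PRPF4 (1.11), SF3A2 (1.10), SF3B4 (0.96) and PRPF6 (0.70). They were negative for TXNL4A (−2.04), SF3B5 (−1.67), SNRPC (−1.19), SF3B6 (−1.18), PRPF8 (−1.02), PPIH (−0.91), PHF5A (−0.70) and SNRNP27 (−0.53). The difference shares its Input libraries with the Input comparison, in which all 16 had been called, so its sign restates the Input change where the polysome change is small. Of the calls, 10 of 16 held in every alternative other than scaling to library size alone.

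Single libraries lay far from the other 3 of their group for 3 of the 16 genes named by rule, out of 48 such groups looked at, where chance gives about 1 in 20. PRPF8 stood at 28.9 CPM in Polysome GEMIN5 replicate 4, against 23.2 to 24.1 in the others. SF3A2 stood at 49.3 CPM in Polysome control replicate 1, against 74.8 to 78. SNRNP27 stood at 24.5 CPM in Input control replicate 4, against 27.7 to 27.8.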

How the results depend on the processing

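Scaling to library size alone moved the counts of genes in every comparison except GEMIN5 against control on polysomes, to 2 higher and 41 lower in Input, 40 and 1 for the difference of effects, 14 and 7 for polysomes against Input in control cells, and 39 and 2 in GEMIN5 cells. It turned the sign of 6 of 24 calls in Input, among them PRPF8 (−0.35) and SNRPC (−0.10), of 6 of 16 in the difference, among them SNRPC (0.11), of 16 of 25 for GEMIN5 polysomes against Input and of 1 of 17 in control cells. Of these, 4, 3, 13 and 0 were called the other way. RLE scaling left 1 member higher in control polysomes against Input, as did leaving out Input control replicates 3 and 4. Fitting only the compared groups gave 10 higher on polysomes against Input in GEMIN5 cells. Without Polysome control replicate 1 and Polysome GEMIN5 replicate 4, an alternative chosen after seeing the data like the one on Input control replicates 3 and 4, counts were 12 for that comparison, 14 positive for the difference and 1 lower on polysomes (SF3B2).

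Leaving out 1 library at a time gave 7 to 8 higher and 14 to 21 lower in Input, 0 to 2 lower and 0 higher on polysomes, 6 to 12 positive and 5 to 10 negative differences, 1 to 3 higher and 13 to 18 lower in control polysomes against Input, and 3 to 11 higher and 18 to 22 lower in GEMIN5 cells. The 12 came without Input GEMIN5 replicate 2 or Polysome GEMIN5 replicate 4, the 5 without Input GEMIN5 replicate 2, the 3 without Input GEMIN5 replicate 3 or Polysome GEMIN5 replicate 3, and the 11 without Polysome GEMIN5 replicate 4. Called member events numbered 1 to 3 in Input and 1 to 4 for polysomes against Input in GEMIN5 cells, and 0 in the other comparisons.

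Member events in Input numbered 2 with at least 20 reads and 542 of 826 without limits on PSI, where many values are exactly 0 or 100 and depth differs between groups. Without limits they numbered 43 in control polysomes against Input and 474 in GEMIN5 cells, and with 1 added to each read number 12 in GEMIN5 cells. With 1 added, 9 were called in Input, and the calls over all 11930 events there went from 512 to 1413. With the replicate block 0 events were called in Input (PRPF31 at a limma adjusted p of 0.0781) and 1 for GEMIN5 polysomes against Input. For genes the replicate block gave 9 higher and 16 lower in Input and no count moved by over 1.5 times. Some same-numbered libraries deviated together and others apart (r from −0.56 to 0.49), so the numbers were not taken to pair the samples.

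Alternative values of the named members kept direction and call in 369 cases, lost the call in 14, gained one in 2 and turned in 3. Depth limits the splicing results, with 10 to 59 corrected reads behind most Input GEMIN5 values.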
